A study of Arabidopsis thaliana with 2 samples.

Results

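The distal narrow peaks of the transcription factor TGA1 in roots are described here. They come from 1 list of 8002 peaks made by ChIP-seq, in which DNA bound by a protein is pulled down with an antibody and read by sequencing. A peak was taken when it was under 1000 bp wide and its midpoint lay more than 1000 bp from every annotated gene of any biotype on chromosomes 1 to 5. This rule found 1297 peaks, 17.8% (95% Wilson interval 17.0 to 18.7%) of the 7271 peaks under 1000 bp and 16.2% of all 8002. The rule used position and width, so a distance over 1000 bp and a gene-free gap over 2000 bp around each peak are given by the choice and are no finding.

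The labels give 2 samples of roots of Arabidopsis thaliana plants with a TGA1-GFP fusion, GFP being a fluorescent protein used here as the tag, 1 for the GFP antibody and 1 for IgG, the background antibody. The sources used here do not give the promoter of the fusion, the age of the plants or a nitrogen treatment. Each antibody had a single library without replicates, and the list holds no height, fold or p-value, so no peak has an error of its own and no test between conditions can be made. Depth is unknown, and intervals on shares cover counting error over peaks or genes alone, which are not replicates. No genome sequence of the build was used here, so no peak sequence is printed, and motifs were not searched.

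TGA factors are bZIP proteins that bind DNA elements with a TGACG core and act in defence, detoxification and nitrogen responses. In the compact genome of Arabidopsis most known regulatory elements sit close to genes, and long gene-free stretches fall into 2 kinds: gaps between active genes of the chromosome arms, which can hold remote control elements, and repeat-rich stretches around the centromeres. A peak in a gap does not say which of its neighbours, if any, it acts on, and the nearest gene is used below only as an address. The gene table gives no strand, so peaks upstream and downstream of a gene cannot be separated.

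Most of the distal narrow peaks lay 1000 to 3000 bp from a protein-coding gene, and so did most of the sequence open to the rule, counted by genes of any biotype. The distance from midpoint to the nearest protein-coding gene ranged from 1004 to 14844 bp, with a median of 1773 bp and quartiles of 1321 and 2599 bp. It was over 2000 bp for 529 peaks (40.8%), over 3000 bp for 233 (17.96%) and over 5000 bp for 48 (3.70%). By distance from a gene of any biotype, 5.03 Mb of sequence lay at 1001 to 1500 bp and 2.90 Mb at 1501 to 2000 bp. A further 2.68 Mb lay at 2001 to 3000 bp, 1.00 Mb at 3001 to 4000 bp and 1.53 Mb beyond 4000 bp. These bins held 528, 331, 275, 113 and 50 of the peaks. The gene-free gap around a peak, bounded by genes of any biotype, was 2122 to 18129 bp long, with a median of 5061 bp and quartiles of 3758 and 7138 bp, and 97 peaks (7.48%) lay in gaps over 10000 bp. None of the 1297 peaks overlapped a gene with an edge, which the limits on distance and width fix in advance. In 281 of them 1 edge came within 1000 bp of a gene, at the closest 563 bp. The peaks just inside the distance limit were at NAC074 (AT4G28530, 1004 bp), WRKY22 (AT4G01250, 1007 bp) and AT4G37240 (1007 bp), and those just outside it at AT1G29060 (1000 bp), AT1G14340 (999 bp) and SS1 (AT5G24300, 999 bp). At the width limit, the peaks just inside were 999 bp at SR1 (AT5G01820), 994 bp at AT5G25280 and 993 bp at GTE7 (AT5G65630), and those just outside were 1000 bp at PRHA (AT4G29940), 1000 bp at AT1G49000 and 1003 bp at FAF4 (AT3G06020).

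**Figure D1:**
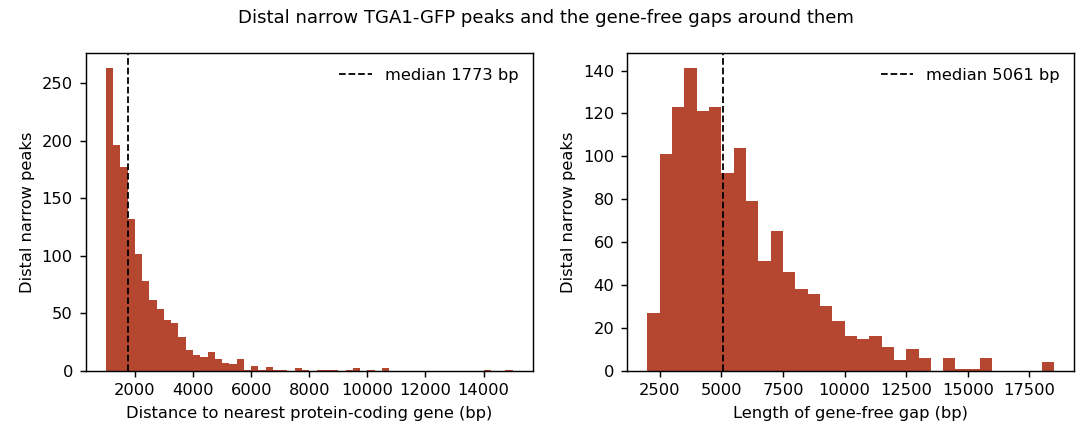
Histograms of the 1297 distal narrow peaks by distance from midpoint to the nearest protein-coding gene (left, bp) and by length of the gene-free gap (right, bp), with the median as a dashed line. The distances pile up just over 1000 bp, where the rule starts, with a median of 1773 bp, and the gaps have a median of 5061 bp.

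For 1087 peaks (83.8%) the nearest annotated gene of any kind was protein-coding. For the other 210 (16.2%) it was a gene of another biotype: a long non-coding RNA gene for 104, a pseudogene for 48, a transcribed pseudogene for 10 and a microRNA gene for 10, the rest being genes of other RNA classes. At these 210 peaks the nearest gene of any kind lay at a median of 1648.5 bp and the nearest protein-coding gene at 2681 bp. Of the 13.1 Mb of sequence more than 1000 bp from every gene, 3.90 Mb lay in gaps with 1 protein-coding border gene and 3.09 Mb in gaps with none. How much of it lay nearest to genes of each biotype was not computed, so these counts have no background of their own. The microRNA genes nearest to 10 peaks are described by the known targets of their products and serve only as addresses. MIR166a (AT2G46685), whose product targets class III homeodomain genes, had a 384 bp peak at 2118 bp, with the nearest protein-coding gene 6715 bp away. MIR396b (AT5G35407), which acts on growth-regulating factors, had a 285 bp peak at 2322 bp. MIR164c (AT5G27807), which acts on NAC genes, had a 520 bp peak at 1803 bp, and MIR167a (AT3G22886), which acts on auxin response factors, had a 704 bp peak at 1548 bp. MIR172b (AT5G04275), which acts on AP2-type genes, had a 251 bp peak at 1633 bp. MIR858a (AT1G71002), a regulator of MYB genes, was nearest to 2 peaks, at 1148 and 2081 bp. The remaining 3 of the 10 peaks were nearest to MIR426, MIR5016 and MIR8167d.

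Distal narrow peaks were spread over all 5 chromosomes and, like narrow peaks nearer to genes, lay mostly in gene-rich parts. They made up 18.7% of narrow peaks on chromosome 1 (367 peaks), 19.0% on chromosome 2 (223), 15.4% on chromosome 3 (211), 17.1% on chromosome 4 (193) and 18.5% on chromosome 5 (303). The Wilson intervals of chromosome 3 (13.6 to 17.46%) and of chromosome 1 (17.0 to 20.5%) overlapped. Sequence more than 1000 bp from every gene, called distal sequence below, came to 13.1 Mb. Where fewer than 100 protein-coding genes started within 500 kb of the middle of the gap, 3.73 Mb of distal sequence held 31 distal narrow peaks, 8.32 per Mb. The value was 35.4 per Mb at 100 to 199 genes, 113 per Mb at 200 to 249 and 185 per Mb at 250 or more. Gaps with 200 or more genes around them, called gene-rich below, held 1195 of the 1297 peaks (92.1%) on 56.4% of the distal sequence. Narrow peaks outside genes and within 1000 bp of one had 3650 of 3910 (93.4%) in gene-rich gaps, on 72.5% of the gap sequence at that distance.

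The 5 peaks more than 10000 bp from any protein-coding gene were all in gene-poor stretches, with 31 to 94 protein-coding genes within 500 kb and a pseudogene as the nearest annotated gene. A pair of 316 and 696 bp had ANX2 (AT5G28680), a receptor kinase of the pollen tube, as the nearest protein-coding gene, 14015 and 14844 bp away, although a pseudogene (AT5G28673) lay 1235 and 2064 bp from them. The others were nearest to MBD12 (AT5G35338, 10053 bp), AT1G38131 (10515 bp) and AT1G42430 (10727 bp). These were named after their values were seen.

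In gene-rich gaps the density of narrow peaks did not fall with distance once a midpoint was past 1000 bp. Over all gaps there were 105 narrow peaks per Mb at 1001 to 1500 bp from a gene, 114 per Mb at 1501 to 2000 bp, 103 per Mb at 2001 to 3000 bp and 113 per Mb at 3001 to 4000 bp, against 164 per Mb within 100 bp and 184 per Mb at 101 to 200 bp. Beyond 4000 bp it was 32.6 per Mb over all gaps. In gene-rich gaps with a protein-coding gene on both sides the same bins gave 154, 168, 152 and 206 per Mb, and 196 per Mb (42 peaks) beyond 4000 bp, against 213 per Mb within 100 bp and 264 per Mb at 101 to 200 bp. Distal sequence in gene-rich stretches held 161 narrow peaks per Mb, against 170 per Mb in gap sequence within 1000 bp of a gene there. Over the whole genome the values were 98.6 per Mb for distal sequence, 132 per Mb for gap sequence within 1000 bp of a gene and 27.0 per Mb inside genes.

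**Figure D2:**
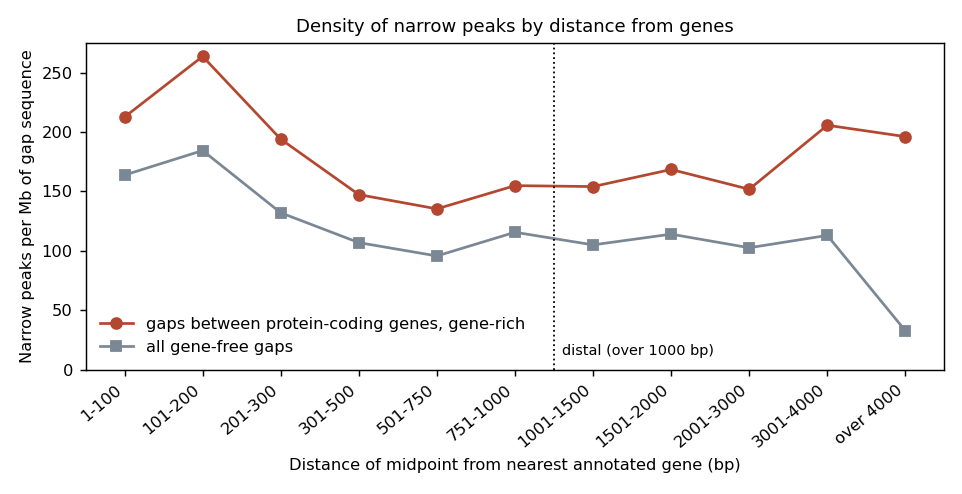
Narrow peaks per Mb of gene-free sequence (y axis) by distance of the midpoint from the nearest annotated gene (x axis, bp), for gene-rich gaps between 2 protein-coding genes (circles) and for all gaps (squares); the dotted line marks 1000 bp. In the gene-rich gaps the bins beyond 1000 bp lie between 152 and 206 per Mb, and over all gaps the last bin drops to 32.6 per Mb.

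Of the 6614 gene-free gaps over 2000 bp, 936 held at least 1 distal narrow peak, 14.2% (13.3 to 15.01%). In gene-rich gaps between protein-coding genes this share went with length: 6.27% at 2001 to 3000 bp, 19.8% at 3001 to 4000 bp, 29.1% at 4001 to 5000 bp, 44.9% at 5001 to 7500 bp, 62.2% at 7501 to 10000 bp and 76.9% (30 of 39) at 10001 to 15000 bp. A longer gap has more room, and the density per Mb of distal sequence ran from 141 to 184 over these 6 classes. Both such gaps over 15000 bp, those of NRT1.5 and NCED3, held distal narrow peaks, 10 in all or 337 per Mb. Over all gaps, 3 of 41 longer than 15000 bp held one. By type of bordering gene, gene-rich stretches had 162 peaks per Mb both where 1 border gene and where both border genes were protein-coding, and 113 per Mb (22 peaks) where neither was. Over all gaps the last value was 13.0 per Mb (40 peaks).

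Many distal narrow peaks had another peak in their gap or close by. Of the 936 gaps, 684 held 1, 172 held 2, 58 held 3, 17 held 4, 3 held 5 and 2 held 6. Thus 613 of 1297 peaks (47.3%) shared their gap with another distal narrow peak, and 359 (27.7%) were the single peak of any kind in their gap. The midpoint of the next peak of any kind lay at a median of 1369 bp from a distal narrow peak, against 2734.5 bp for narrow peaks outside genes and within 1000 bp of one, and 2331 bp for narrow peaks inside genes. Another midpoint lay within 2000 bp of 860 distal narrow peaks (66.3%), against 42.2% and 45.1% in those groups. Among gene-rich gaps over 2000 bp, 445 of 855 with a distal narrow peak (52.0%) also held a peak closer to a gene or a broad one, against 1017 of 3571 without (28.5%). By the rule the distal narrow peaks lie in gap sequence. Such sequence held 98.6 (distal) and 132 (within 1000 bp of a gene) narrow peaks per Mb, against 27.0 inside genes. No sharing expected from gap length or from these densities was computed, so the part they play was not tested. No test over peaks was made of these differences.

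The 5 gaps with the most distal narrow peaks, and a sixth with 4, were as follows. Between NCED3 (AT3G14440), the rate-limiting enzyme of stress-induced abscisic acid synthesis, and CID9 (AT3G14450), a gap of 15523 bp on chromosome 3 held 6 peaks and no other. From the NCED3 side they stood at 1472, 3561, 5038, 6264, 7953 and 9322 bp from that gene, with widths of 475, 590, 457, 989, 466 and 835 bp. The side toward CID9 was empty for its last 6202 bp, measured from the last midpoint. NCED3 was the nearest protein-coding gene of 5 distal narrow peaks, of which 4 were in this gap, more than any other gene had.

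Between NAC074 (AT4G28530), a NAC transcription factor, and CKL6 (AT4G28540), a casein kinase, a gap of 11832 bp on chromosome 4 held 8 peaks, 6 of them distal and narrow. These stood at 1004, 3607 and 5584 bp from NAC074 and at 3811, 2108 and 1240 bp from CKL6, and the other 2 had midpoints 52 bp from NAC074 and 492 bp from CKL6. At LBD4 (AT1G31320), a LOB-domain factor of vascular development, a gap of 12816 bp held 5, of which the 4 nearest to LBD4 stood at 2319, 3408, 4512 and 6004 bp. The one at 6004 bp (chromosome 1, 11206675 to 11207233) came early in the list, at place 612 of 8002, while the others ran from place 4001 to 7851. The gap between AT5G60680 and REV (AT5G60690), a class III homeodomain factor that patterns organs and vessels, was 9676 bp long and held 5 peaks, at 2970, 3848 and 4676 bp from REV and 1041 and 1876 bp from AT5G60680. Another 5 lay in the 9913 bp between AT2G43140 and AT2G43150. Between GTE7 (AT5G65630), a bromodomain protein, and bHLH093 (AT5G65640), a basic helix-loop-helix factor, 4 peaks stood in 7389 bp, of which those of 993 bp (place 50) and 797 bp (place 260) came early in the list.

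**Figure D3:**
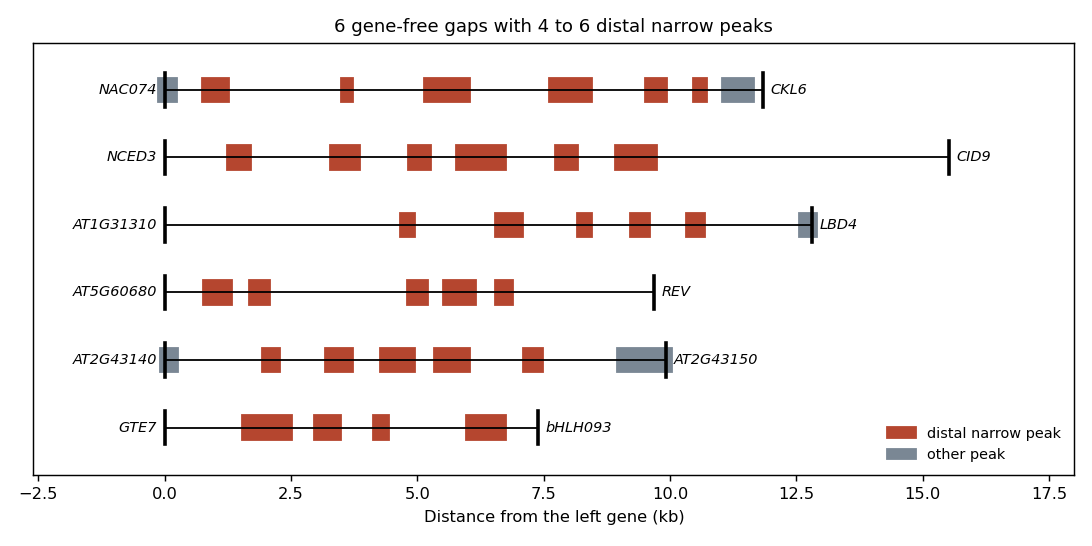
Maps of 6 gene-free gaps, drawn to scale as distance from the left gene (x axis, kb), with distal narrow peaks in red and other peaks in grey; the first 5 hold the most distal narrow peaks, and the sixth comes first in the list among the 17 gaps with 4. Of the 6 peaks between NCED3 and CID9, 4 are nearest to NCED3, and no other peak is in that gap.

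The longest gap with a distal narrow peak bordered a nitrate transporter. NRT1.5 (AT1G32450) loads nitrate into the xylem for transport to the shoot. The gap of 18129 bp between it and AT1G32460 on chromosome 1 held 4 distal narrow peaks and no other peak. They stood 5658, 7962, 9560 and 11012 bp from NRT1.5, with widths of 781, 752, 249 and 351 bp, at places 3199, 1076, 6443 and 2973 of the list. All 4 lay more than 5000 bp from both border genes, and the one at 11729424 to 11729672 was the distal narrow peak farthest from any annotated gene, at 8570 bp. Of the 10 peaks farthest from any gene, 3 were in this gap, 3 in the gap of NCED3 and 1 at LBD4. Another was a 474 bp peak 6513 bp from the tubulin gene TUB2 (AT5G62690), in the gap it shares with the glucosinolate transporter gene GTR2 (AT5G62680). An 870 bp peak stood 6035 bp from PPOX (AT4G01690), which makes protoporphyrin for haem and chlorophyll, in the gap it shares with MYB55. A 255 bp peak lay 5711 bp from UCNL (AT3G20830), in the 14001 bp that separate it from PLT1 (AT3G20840), a regulator of the root stem cell niche 8291 bp away. SWEET11 (AT3G48740), a sucrose exporter, was nearest to 3 of the 4 peaks of its 14245 bp gap, at 1551, 2833 and 5677 bp. SUC1 (AT1G71880), a sucrose importer, was also nearest to 3, the earliest at place 148; both sugar transporter genes were named after their values were seen.

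The 1297 peaks had 1062 protein-coding genes as their nearest, 3.87% of all 27444 protein-coding genes on these chromosomes. Of them 866 were nearest to 1 peak and 196 to 2 or more. A gene can be nearest only if some distal sequence is closest to it, which was so for 8534 genes, and 12.4% of these were nearest to a distal narrow peak. That share was 14.0% of the 6949 such genes in gene-rich stretches and 15.5% of the 3539 that carry a symbol of their own in the gene table. The last 2 values are the closer background for the gene lists below, which hold named genes, mostly in gene-rich stretches. Of the nearest genes, 547 (51.5%) also had a peak inside them or within 1000 bp, against 26.9% of the other genes with distal sequence. In gene-rich stretches the values were 52.5% and 30.6%.

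Genes of nitrogen transport and assimilation stood beside distal narrow peaks at the highest share of the 7 lists of genes. Of 26 genes, 22 had distal sequence and 10 of these were nearest to a peak, 45.5% (26.9 to 65.3%). Of the 19 in gene-rich stretches, 8 were. The share was 12.4% of all genes with distal sequence, 14.0% of those in gene-rich stretches and 15.5% of those with a symbol of their own. Together the list's genes had 17 peaks, or 348 per Mb of the distal sequence closest to them. This was against 98.6 per Mb over all genes and 161 per Mb in gene-rich stretches. By this measure the list of nitrogen response regulators, at 340 per Mb, was close to it. The list was chosen with earlier results of these data known and has no test of its own here.

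The 10 genes act at steps from nitrate uptake to amino acid synthesis. NIA2 (AT1G37130), which encodes the main nitrate reductase, was nearest to 4 peaks. In the 8412 bp gap on 1 side of it they stood at 1131, 1815 and 3537 bp, with widths of 538, 613 and 558 bp and places 525, 2547 and 1591. The fourth, 402 bp wide, was 8895 bp away in another gap. NIA1 (AT1G77760), the second nitrate reductase gene, had a 916 bp peak at 1573 bp, at place 248 (chromosome 1, 29240600 to 29241515). NIR1 (AT2G15620), the nitrite reductase gene, had a pair of 499 and 391 bp at 1159 and 1732 bp, and no peak inside it or closer. Among carriers for nitrate uptake at low supply, NRT2.1 (AT1G08090) was nearest to a 586 bp peak at 2656 bp (chromosome 1, 2521075 to 2521660). That peak was almost as close to the other border gene of its gap, ACA7 (AT1G08080), at 2756 bp. NRT2.5 (AT1G12940), a transporter of nitrogen-starved plants, had peaks of 403 and 508 bp at 3378 and 4032 bp.

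NRT1.8 (AT4G21680), which takes nitrate back out of the xylem, had peaks of 663 and 534 bp at 2549 and 3237 bp and no closer one. CLC-A (AT5G40890), which moves nitrate into the vacuole, had a 916 bp peak at 1256 bp and no closer one. In assimilation, GLN1;2 (AT1G66200), a cytosolic glutamine synthetase, had a 454 bp peak at 3278 bp, and GLT1 (AT5G53460), an NADH-dependent glutamate synthase, had a 435 bp peak at 2433 bp. NRT1.8, NIR1, CLC-A and GLT1 were the 4 of these 10 genes without a peak inside them or within 1000 bp. The list's peaks ran from place 248 to 6729, with a median of 2547, against a median of 3930 over all 1297 peaks. The 12 genes of the list with distal sequence but no distal narrow peak included NRT1.1, NRT2.2, NRT2.6 and AMT1;3, which had a broad distal peak each, and NRT2.3 and NRT2.4, which had neither. Naming the whole list, beyond its 4 earliest peaks, was decided after the values were seen.

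The nitrogen response regulators had 5 of 21 genes beside a distal narrow peak, 23.8% (10.6 to 45.1%). Their 7 peaks came to 340 per Mb of distal sequence, against 348 for nitrogen transport and assimilation. The median length of distal sequence per gene was 625 bp, against 1304.5 bp in that list. HRS1 (AT1G13300), a repressor of the nitrate starvation response, had peaks of 600 and 747 bp at 1154 and 2353 bp, and its relative HHO3 (AT1G25550) a 671 bp peak at 1250 bp. LBD38 (AT3G49940), which represses genes that respond to nitrate, had peaks of 549 and 367 bp at 1032 and 2268 bp, 1 on each side of it. OBP4 (AT5G60850), a DOF factor of root growth, had a 498 bp peak at 1378 bp, and CIPK8 (AT4G24400), a kinase of nitrate signalling, a 494 bp peak at 1066 bp. All 5 also had a peak within 1000 bp or inside. The receptor gene CEPR1, which senses a root peptide of nitrogen demand, and CEPD2, which acts after it, had distal sequence and no distal narrow peak. The related CEPD1 and CEPDL2 have no distal sequence. Of 10 TGA genes 3 had distal sequence and 0 of these a distal narrow peak, and the interval on that share reaches 56.1%. TGA1, among these 3, had 1 broad distal peak, left out by the rule. Of the regulators without a distal narrow peak, NLP7, BT2 and CEPH had 1 broad distal peak each and LBD37 had 2.

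The hormone lists had 1 peak at each gene named here. Of auxin genes 7 of 20 were nearest to a distal narrow peak, 35% (18.1 to 56.7%). Among them were the auxin efflux carrier PIN7 (AT1G23080, 271 bp wide, at 1381 bp), the influx carrier AUX1, the repressor IAA3, the response factors ARF5 and ARF19 and the receptor AFB2. The places of the list's peaks ran from 3901 to 7947 with a median of 6607. Of cytokinin genes 6 of 20 were, 30% (14.5 to 51.9%): the receptor genes AHK2 and WOL (AT2G01830), the response regulators ARR1 and ARR8, and IPT7 and CYP735A2, which make cytokinins. The median place was 6201, and the earliest was the 418 bp peak 1811 bp from WOL. Per Mb of distal sequence these lists had 165 and 185 peaks, close to the 161 of gene-rich stretches. Of iron deficiency genes 3 of 12 were, 25% (8.89 to 53.2%), with 275 peaks per Mb of distal sequence (3 peaks). MYB72 (AT1G56160), a factor needed for growth on low iron, had a 978 bp peak at 1782 bp and place 506. The iron sensor BTS had a 428 bp peak and the metal transporter NRAMP1 a 268 bp peak.

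Regulators of root development had the lowest share of the 7 lists after the TGA genes. They had distal sequence at 26 of 29 genes, with a median of 1596 bp each, and only LBD29 (AT3G58190), which acts in lateral root formation, and MGP (AT1G03840), a zinc finger factor of the ground tissue, were nearest to a distal narrow peak. That was 7.69% (2.14 to 24.1%), or 36.7 peaks per Mb of distal sequence, against 161 per Mb in gene-rich stretches. The LBD29 peak was 393 bp wide at 3400 bp and came at place 852, and the MGP peak was 366 bp wide at 1376 bp. PLT1, PLT2, WOX5, FEZ, RSL1, RSL2 and CPC, chosen after their values were seen, were among the genes with distal sequence but neither a distal narrow peak nor any peak within 1000 bp. Roots were used whole, and the cell types that carried the binding were not measured.

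Of the families of gene names with more than 2 genes that have distal sequence, WRKY had the highest share. Of 67 WRKY genes 47 had distal sequence and 20 of these were nearest to a distal narrow peak, 42.6% (29.5 to 56.7%), with 22 peaks or 383 per Mb. WRKY6 (AT1G62300), a regulator of phosphate responses and senescence, had an 889 bp peak at 1048 bp and place 185. WRKY17 (AT2G24570), a repressor of basal defence, had a 537 bp peak at 1962 bp and place 265. WRKY22 (AT4G01250), a target of the immune MAP kinase cascade, had a 754 bp peak at 1007 bp and place 282, and WRKY48 (AT5G49520) a 915 bp peak at 1628 bp. Among MYB genes 25 of 88 were nearest to one, 28.4% (20.04 to 38.6%), 33 peaks in all. MYB3 (AT1G22640) and MYB7 (AT2G16720), repressors of phenylpropanoid synthesis, had peaks of 645 bp at 1286 bp and of 822 bp at 2257 bp, and MYB87 (AT4G37780) had a 908 bp peak at 2970 bp.

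Over 10 families of transcription factors together, 76 of 309 genes with distal sequence were nearest to one, 24.6% (20.1 to 29.7%), with 209 peaks per Mb. LBD genes had 5 of 18 and homeobox genes named HB 8 of 29, among them HB-8 (AT4G32880), a class III homeodomain factor of the procambium with a 456 bp peak at 2615 bp, and HB6 (AT2G22430), a negative regulator of abscisic acid responses with a 903 bp peak at 4039 bp. GATA genes had 3 of 14. GATA13 (AT2G28340) alone had 3 peaks, of 492, 569 and 739 bp at 1094, 2043 and 3479 bp in the gap it shares with ARF10, all within the first 711 places. Among genes with bZIP and a number as symbol, 3 of 18 were nearest to a distal narrow peak. These were bZIP2 (AT2G18160), a sucrose-regulated factor, with 3 peaks, the first at place 204, and bZIP44 and bZIP58. TGA1 itself is a bZIP protein, but bZIP genes with other symbols, such as the TGA genes and BZO2H3, are not in this count. NAC genes had 7 of 42, ERF genes 3 of 16 and bHLH genes 1 of 7. All these families were counted by symbol, so members with other names are left out.

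Families of enzymes, cell wall proteins, transporters and peptides were counted in the same way. Cytochrome P450 genes had 17 of 84, 20.2% (13.0 to 30.04%), at 127 per Mb, each with 1 peak. The earliest were at CYP710A3 (AT2G28850), a sterol desaturase, 894 bp wide at 1218 bp and place 87, at CYP72A14 (AT3G14680), 719 bp wide at 1242 bp and place 112, and at CYP708A2 (AT5G48000), an enzyme of the thalianol gene cluster, 960 bp wide at 3724 bp in the gap it shares with the thalianol synthase gene THAS1. CYP707A1 (AT4G19230) and CYP707A3 (AT5G45340), which break down abscisic acid, had peaks of 282 bp at 1304 bp and of 821 bp at 1277 bp; they were named after their values were seen. XTH genes of cell wall remodelling had 5 of 16, expansin A genes 2 of 13, ABC transporters 7 of 35, CLE signalling peptides 4 of 17, glutathione transferases 2 of 9 and EMB genes, which are essential for the embryo, 5 of 33. GSTU8 (AT3G09270) and GSTU9 (AT5G62480), the glutathione transferases, had peaks of 655 bp at 1061 bp and 854 bp at 1393 bp. LCR genes had 2 of 23, SAUR genes 1 of 2 and UGT glycosyltransferases 0 of 11. Of all 27 lists and families, 22 lay above the 12.4% of all genes with distal sequence and 5 below it. Against the 15.5% of genes with a symbol of their own, 19 lay above and 8 below. Only nitrogen transport and assimilation, auxin, WRKY and MYB genes had an interval wholly above 15.5%. Several lists hold few genes with distal sequence. Some genes, such as LBD38, LBD29 and MYB72, are in more than 1 list, so the lists are not separate results. Genes nearest to a distal narrow peak had a median of 1749.5 bp of distal sequence, the other genes with such sequence 692 bp. Shares are not adjusted for this. Per Mb of distal sequence, gene-rich stretches held 161 peaks. Of the lists above 12.4%, P450 (127), ERF (144), ABC transporter (136), CLE (140) and expansin A (107) genes had fewer. The others had more, from 162 for HB genes upward.

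**Figure D4:**
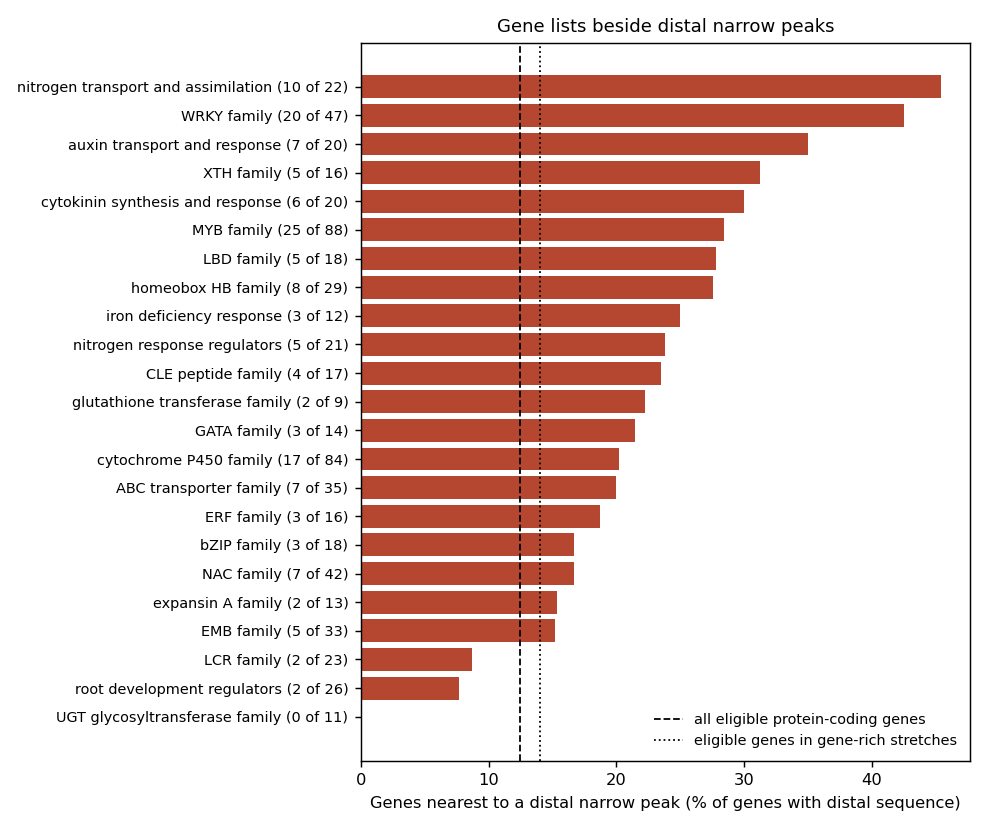
Share of the genes with distal sequence that were nearest to a distal narrow peak (x axis, %), by list or family (rows, with counts; those reported here with 9 or more such genes). The dashed line is the 12.4% of all such genes and the dotted line the 14.0% of those in gene-rich stretches. Nitrogen transport and assimilation (45.5%) and WRKY genes (42.6%) lie highest, and UGT genes are at 0. Shares are not adjusted for the length of distal sequence at each gene.

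Distal narrow peaks were found throughout the list. The file does not say what its order stands for, so a place is given only as a place. Their median place was 3930, against 4285 for narrow peaks outside genes and within 1000 bp of one and 4694.5 for narrow peaks inside genes. Of narrow peaks among the first 800 places 21.6% were distal (18.1 to 25.5%), and among the last 800 places 14.8% (12.5 to 17.4%). Their median width was 430 bp (quartiles 336 and 583 bp), against 420.5 bp near genes and 394 bp inside them. Over peaks of every width the distal share was 15.4% at 300 bp or less, 20.2% at 751 to 999 bp, 22.5% at 1000 to 1499 bp and 35.5% (29.4 to 42.0%) at 1500 bp or more. The last 2 classes are broad peaks, left out by the rule. Place and width went together: 464 of the first 800 places held narrow peaks, against 799 of the last 800. The shares by place were not adjusted for width.

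**Figure D5:**
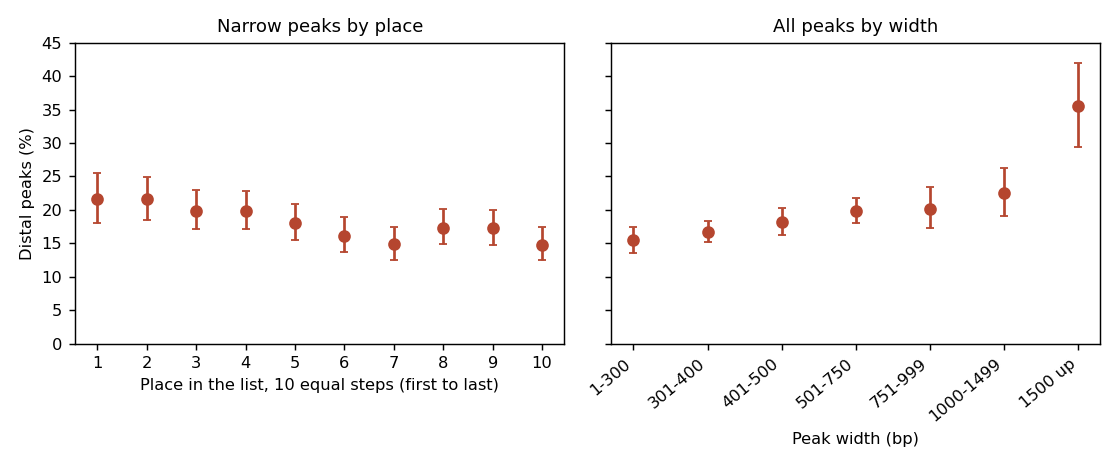
Share of peaks that were distal (y axis, %) by place in the list, in 10 equal steps, for narrow peaks (left) and by width for all peaks (right), with 95% Wilson intervals over peaks as bars. The share is 21.6% in the first 800 places and 14.8% in the last 800, and 35.5% at 1500 bp or more.

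The 10 earliest distal narrow peaks stood at varied genes. The first, at place 7, was 916 bp wide and 1106 bp from AT3G27880 (chromosome 3, 10336585 to 10337500). At place 41 a 967 bp peak lay 1372 bp from CEJ1 (AT3G50260), a DREB-type factor of stress responses. At place 53 a 721 bp peak lay 2750 bp from a RING finger gene (AT4G19700), in a 10068 bp gap with 4 distal narrow peaks that ends at AK-HSDH II (AT4G19710), an enzyme of amino acid synthesis from aspartate. At place 86 a 750 bp peak lay 1029 bp from TBL26 (AT4G01080). At place 125 a 756 bp peak lay 1533 bp from AT5G45350, at the far end of the 10777 bp gap of CYP707A3. The remaining ones were those at GTE7, CYP710A3 and CYP72A14 given above and those at AT4G02940 (place 63) and AT2G28920 (place 129). The 10 widest, from 984 to 999 bp, included the peaks at SR1, AT5G25280, GTE7 and NCED3 given above and the bZIP2 peak at 2553 bp. They also stood at BZO2H3 (AT5G28770), another bZIP gene, at TPPC (AT1G22210), a trehalose phosphatase gene, and at PRMT6 (AT3G20020), an arginine methyltransferase gene.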

How the data were processed

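Chromatin from TGA1-GFP roots was recovered with GFP antibodies and sequenced, per the labels' protocols, and Bowtie2 and MACS2 with the TAIR10 build are named per the submitters' processing notes. The sources used here give no versions or thresholds and do not say whether IgG served as control. The authors deposited start and end positions only (3 columns with chromosome; no header). Following BED usage, starts count from 0 in the file, and 1 was added for print. The midpoint stood for the summit. Genes came from a RefSeq table of assembly TAIR10.1, whose positions were taken to match TAIR10 (37899 genes, 27444 protein-coding).

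Each gap was the stretch between neighbouring genes of any biotype. Distal sequence was assigned to the nearest protein-coding gene. Named peaks were the 10 earliest, the 10 widest, the 10 farthest from a gene, those of 6 gaps, up to 4 per list and 3 on each side of each limit. Families were matched by symbol, and 1 of 21 (NPF) matched none; 1 gene and 1 family enter the counts but are not reported here by name. Members and lists were chosen with earlier results of these data known. The peak list allowed no statistical test. The code that computes distances was checked on simulated positions with known answers. Tables were made in Python 3.11.15 with pandas 2.3.3 and numpy 2.4.6, intervals with scipy 1.17.1 and figures with matplotlib 3.10.9.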

Additional observations from a re-analysis of the deposited data

How the results depend on the processing

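No paired analysis was possible because there is 1 peak list and no replicate. The number of distal narrow peaks was 2272 with a distance over 500 bp, 438 over 2000 bp, 822 with a width under 500 bp and 660 in the earlier of 2 equal parts of the list; it stayed within 1.5 times 1297 with protein-coding genes alone (1581), the nearest edge (1016), no width limit (1490) and starts counted from 1 (1297). The share of narrow peaks was 31.2%, 6.02%, 21.7%, 14.0%, 16.8% and 19.96% for a distance over 500 bp, over 2000 bp, protein-coding genes alone, the nearest edge, a width under 500 bp and the earlier part. The median distance to a protein-coding gene was 1242 bp and 2848 bp for distances over 500 and 2000 bp, and the median gap 3901 bp and 7270 bp, 5683 bp with protein-coding genes alone and 5545.5 bp for the nearest edge. Nearest genes numbered 1862, 368 and 590 for over 500 bp, over 2000 bp and the earlier part. The share of gaps with a peak (gaps over 1000 bp for the first) was 12.9% for over 500 bp, 16.9% for protein-coding genes alone, 11.1% for the nearest edge, 15.9% with no width limit, 10.1% under 500 bp wide and 8.21% in the earlier part. Limits on distance, width or place change by construction how many peaks are taken. Likewise, protein-coding genes alone can only add peaks, and the nearest edge can only remove them. The cause of the other differences was not tested. The planned share upstream of genes and the motif search were not run, since strand and sequence were not used here. Depth is unknown.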
